A study of Homo sapiens with 3 samples.

Results

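The type I interferon-stimulated genes were examined in CAL27 cells, an established human oral squamous cell carcinoma (OSCC) line, and in the resistant lines derived from them, to ask how the genes of this antiviral response differed between parental and resistant cells. The set holds 42 of the 19220 genes in the count table, picked by symbol as known interferon-induced genes and interferon signalling factors, without a cut on measured values. The choice was made with earlier results of these data known. All 42 passed the filter on low counts (10 or more on average per library), as did 13676 genes in all, which are called the tested genes here. RNA-seq of bulk cultures was analysed in 1 library per line. CAL27 cells (genotype WT in the labels) were grown in drug-free medium, CAL27/5FU cells (5-fluorouracil resistant) in medium with 10 μM 5FU and CAL27/OXA cells (oxaliplatin resistant) in medium with 10 μM OXA, and the rest of the medium was shared. 5FU blocks thymidylate synthesis and is built into RNA and DNA, and OXA is a platinum drug that crosslinks DNA. The CAL27/5FU line was selected under rising doses of 5FU, while how the CAL27/OXA line was made is not given in the sources used here. Each resistant line is a single derived line that was kept in its drug, so lasting resistance and the presence of the drug cannot be told apart.

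The libraries held 41786182, 37297713 and 43455488 counts for CAL27, CAL27/5FU and CAL27/OXA, and the 10 genes with most counts took between 4.50% and 5.88% of them. Only 1 library per line carries a sample label. Each table holds 3 more columns, named as further samples of these lines, which were not used because no label describes them, so differences were not set against replicate spread and p-values are not given. In place of replicate error, each log2 ratio of scaled counts carries a 95% interval from the exact Clopper-Pearson method for the counts behind it, which covers counting error only. A gene was called higher or lower past 2-fold. CAL27/5FU and CAL27/OXA were both set against the same CAL27 library, so their ratios share its error. In bulk cultures, fewer cells expressing a gene and less RNA per cell cannot be told apart.

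Type I interferons signal through a receptor of the IFNAR1 and IFNAR2 chains, and the kinases TYK2 and JAK1 then phosphorylate STAT proteins, STAT2 among them. With IRF9 these form the complex ISGF3, which binds the interferon-stimulated response element (ISRE) in the promoters of target genes. The induced proteins include sensors of viral RNA, enzymes and membrane proteins that block viral replication or entry, the ubiquitin-like modifier ISG15 and the chemokines that draw T cells. Epithelial and tumour cells can carry out this response without leukocytes.

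The following promoter stretches are shown because they hold the ISRE core of genes on which the results turn: IFI44L and IFI6 had the largest ratios in CAL27/5FU, ISG15, IFIT1, IFITM3 and BST2 stand for other roles and levels, CXCL10 had the lowest ratio in CAL27/OXA, and IRF1 went the other way in CAL27/5FU and held no core. They are RefSeq sequences on GRCh38.p14, read in the direction of the gene, 80 bases each. Capitals mark the core, which is GAAA, any 2 bases and GAAA, or on the other strand TTTC, any 2 bases and TTTC, and for IRF1 the motif TTCNNNGAA, named the interferon-gamma activated site (GAS).
IFI44L: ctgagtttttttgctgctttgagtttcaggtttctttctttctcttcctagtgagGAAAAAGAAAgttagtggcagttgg
IFI6: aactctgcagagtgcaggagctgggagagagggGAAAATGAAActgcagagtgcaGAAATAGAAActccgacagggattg
ISG15: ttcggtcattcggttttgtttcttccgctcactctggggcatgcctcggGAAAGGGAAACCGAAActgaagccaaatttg
IFIT1: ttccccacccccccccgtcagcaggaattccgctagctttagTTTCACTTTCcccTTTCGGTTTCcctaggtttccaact
IFITM3: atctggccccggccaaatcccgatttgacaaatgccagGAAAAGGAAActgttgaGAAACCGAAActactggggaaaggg
BST2: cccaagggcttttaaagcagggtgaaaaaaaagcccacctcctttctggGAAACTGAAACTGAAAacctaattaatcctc
CXCL10: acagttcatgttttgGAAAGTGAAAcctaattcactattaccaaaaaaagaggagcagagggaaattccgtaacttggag
IRF1: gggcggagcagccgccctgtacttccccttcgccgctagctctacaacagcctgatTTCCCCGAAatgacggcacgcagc
The stretch of IFI44L is chr1:78620320-78620399 on the plus strand, with a core beginning 73 bases before the start of the gene. Another core of IFI44L, at 164 bases, lay outside the stretch. That of IFI6 is chr1:27672261-27672340 on the minus strand, with cores at 115 and 93 bases. A further core of IFI6, at 156 bases, was not wholly within its stretch and is not marked. For ISG15 (chr1:1013335-1013414, plus strand) 2 cores overlapped, at 113 and 107 bases, and the same arrangement was found for BST2 (chr19:17405730-17405809, minus strand), at 130 and 124 bases. The IFIT1 stretch (chr10:89392465-89392544, plus strand) held cores at 116 and 103 bases, and that of IFITM3 (chr11:320871-320950, minus strand) at 52 and 35 bases. For CXCL10 (chr4:76023654-76023733, minus strand) the core lay farther out, at 221 bases, and the GAS of IRF1 (chr5:132490874-132490953, minus strand) lay at 124 bases.

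The core was searched on both strands in the RefSeq windows from 250 bases before to 50 bases after each start. Of the 42 genes, 33 had a window, and OAS2, OASL, IRF7, UBA7, USP18, IFIT2, MX2, IFITM2 and TRIM22 were not matched. The core was present for 21 of the 33 genes (63.6%), against 1195 of 27305 genes with a window (4.38%) and 443 of the 10648 tested genes with one (4.16%). Counting a site once where windows of a gene overlap, 38 of 42 sites lay wholly before a start of the gene and 31 wholly within the 150 bases before one. The 21 genes with the core had a median log2 ratio of 1.24 in CAL27/5FU (0.43 to 2.51), with 15 of them called higher. The 12 genes without it were DDX58, OAS1, STAT2, IRF1, IRF9, HERC6, CMPK2, SAMD9L, IFI16, IFI35, XAF1 and CXCL11, with a median of 0.90 (-0.26 to 2.38) and 6 called higher. Of all tested genes, 8.46% were called higher in CAL27/5FU. The ranges of both groups overlapped widely, and CMPK2, among the highest ratios of all, held no core in its windows. GAS, searched after seeing the data, was found for 10 of the 33 genes (30.3%) and for 9.38% of all genes with a window. A match describes letters only, and no binding was measured.

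**Figure D1:**
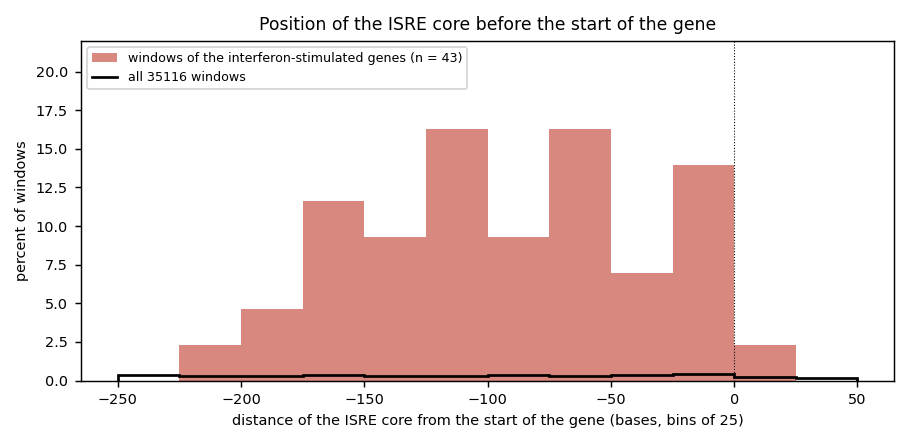
Share of promoter windows (percent) that hold an ISRE core, by the distance of its first base from the start of the gene (bases, bins of 25), for the 43 windows of the interferon-stimulated genes (filled) and all 35116 windows (line). The fullest bins of the interferon-stimulated genes, from 125 to 101 and from 75 to 51 bases before the start, each held 16.3% of their windows, and no bin of all windows held more than 0.433%.

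In CAL27/5FU cells the interferon-stimulated genes were higher as a group. More than 2-fold above CAL27 were 27 of the 42 genes and as far below it 0, where 8.46% of all tested genes were called higher and 6.72% lower. The ratio was positive for 41 genes (97.6%, against 49.7% of all tested genes), and the whole interval lay past 2-fold for 25 of them, against 5.48% of tested genes. Their median log2 ratio was 1.27, a fold of 2.42, with the middle of the genes between 0.73 and 1.74 (quartiles), where the median of all tested genes was -0.0035. The single gene with a negative ratio was IRF1. In CAL27/OXA cells the same list lay near the parental level. ISG20 was the only gene called higher (6.54% of tested genes were) and CXCL10 the only gene called lower (9.28% of tested genes were). The median was 0.10, against 0.0055 for all tested genes, and 25 genes had a positive and 17 a negative ratio. With the whole interval past 2-fold, 0 members were higher in CAL27/OXA (3.85% of tested genes were) and 1 was lower (6.32% were). At 4-fold, 5 members were higher in CAL27/5FU (2.95% of tested genes), and in CAL27/OXA 0 were higher (2.16%) and 0 lower (3.01%). For 14 of the 42 genes the interval lay above 0 in CAL27/5FU and below 0 in CAL27/OXA, as it did for 5.63% of tested genes. Taken alone, the interval lay below 0 in CAL27/OXA for 16 of the 42 genes and for 5131 of the 13676 tested genes, a similar share. It lay above 0 in CAL27/5FU for 40 of the 42 and for 5003 of the 13676. With total counts as the only scaling, the median of all tested genes was 0.17 in CAL27/5FU and 0.14 in CAL27/OXA, with 1432 higher and 699 lower genes in place of 1157 and 919 in CAL27/5FU and 1100 and 1052 in place of 894 and 1269 in CAL27/OXA. The 42 genes lay 1.28 above the median of all tested genes with either scaling in CAL27/5FU, and 0.09 above it in CAL27/OXA.

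**Figure D2:**
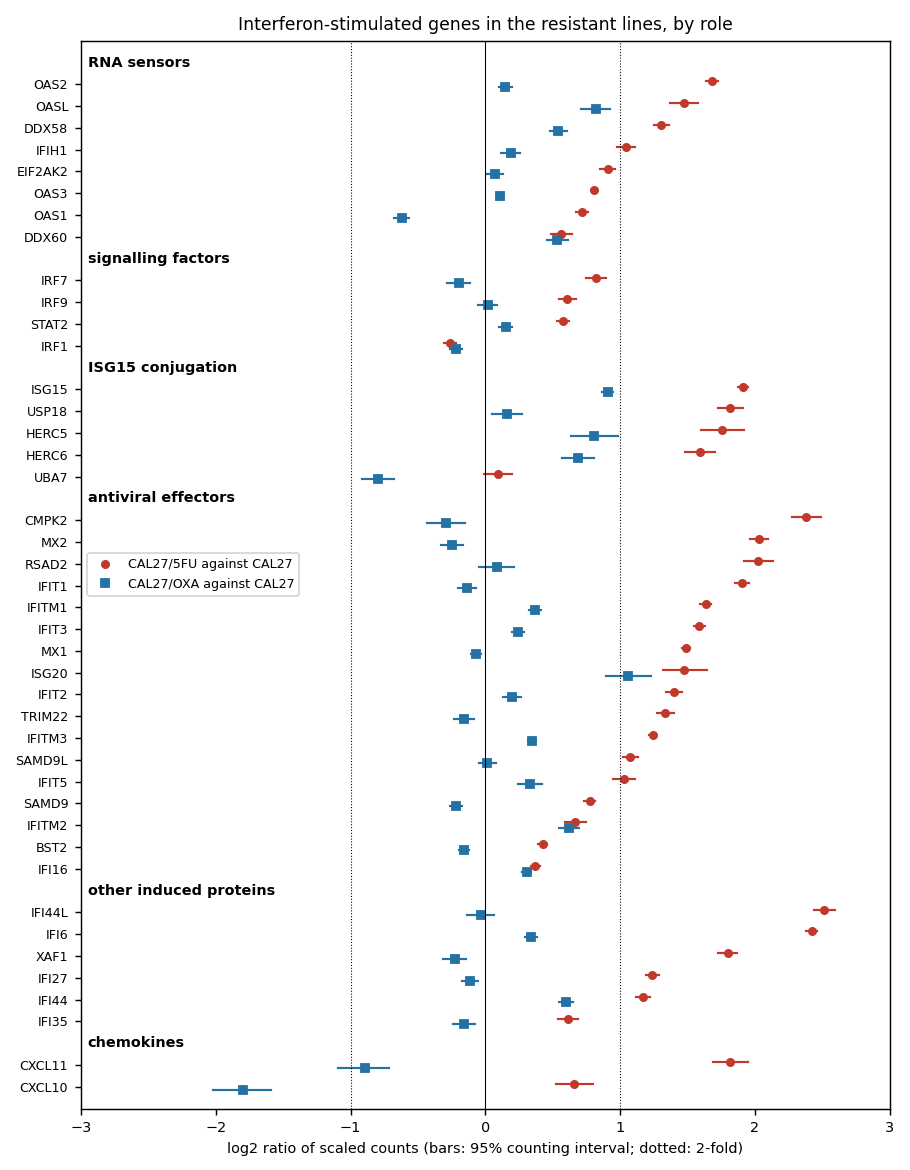
Log2 ratio of scaled counts against CAL27 for each of the 42 genes, by role, in CAL27/5FU (circles) and CAL27/OXA (squares), with 1 library per line; bars are 95% counting intervals and dotted lines mark 2-fold. In CAL27/5FU 27 genes lie past 2-fold, and in CAL27/OXA ISG20 and CXCL10 do, on opposite sides.

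**Figure D3:**
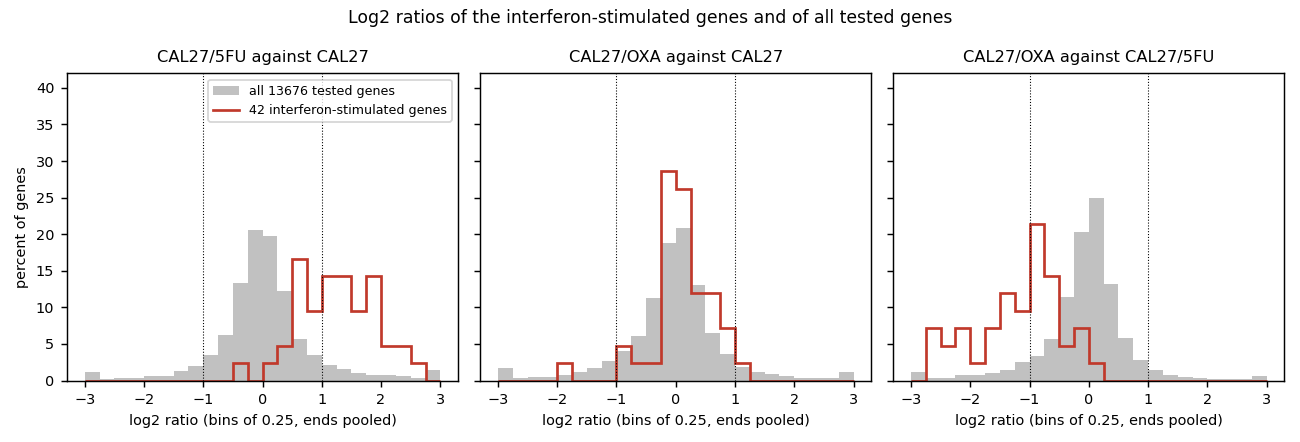
Distribution of log2 ratios (bins of 0.25, with values beyond 3 in either direction pooled in the end bins) of the 42 genes (line) and of all 13676 tested genes (filled), as percent of genes, in the 3 comparisons. The line is shifted to the right of all genes in CAL27/5FU (median 1.27), overlies them in CAL27/OXA (median 0.10) and is shifted to the left between the resistant lines (median -0.997).

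Of the 8 RNA sensors, 4 were called higher in CAL27/5FU, with a median log2 ratio of 0.98, and none was called in CAL27/OXA, with a median of 0.17. Of all tested genes 8.46% were called higher in CAL27/5FU, and in CAL27/OXA 6.54% were called higher and 9.28% lower. OAS2, a synthetase that is turned on by double-stranded RNA and activates RNase L, had 5734, 18475 and 7247 counts in CAL27, CAL27/5FU and CAL27/OXA. Its log2 ratio was 1.68 (95% interval 1.64 to 1.72) in CAL27/5FU and 0.15 (0.10 to 0.20) in CAL27/OXA. OASL, a relative without that activity, had 1065, 2972 and 2143 counts in the same order, with ratios of 1.47 and 0.82. CAL27/5FU was thus the highest library for both, and OASL was also above the parental level in CAL27/OXA. DDX58, which encodes the helicase RIG-I, had 3328, 8268 and 5529 counts and ratios of 1.31 (1.25 to 1.36) and 0.54 (0.48 to 0.61). IFIH1, which encodes MDA5, had 2857, 5915 and 3714 counts, and its ratio of 1.04 (0.98 to 1.11) had an interval that spans the 2-fold line. EIF2AK2, the gene of the kinase PKR that halts translation on double-stranded RNA, had 4120, 7773 and 4937 counts, a ratio of 0.91 (0.85 to 0.96) that was just short of 2-fold.

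The remaining sensors did not follow a single pattern. OAS3, the member with most counts, had 28476, 49939 and 35053 counts and ratios of 0.80 and 0.11. OAS1 had 6510, 10752 and 4827 counts, and was above CAL27 in CAL27/5FU (0.72, interval 0.67 to 0.76) and below it in CAL27/OXA (-0.62, -0.68 to -0.57). DDX60, a helicase induced by viruses, had 2187, 3246 and 3610 counts, with near-equal ratios of 0.56 and 0.53 whose intervals overlapped. OAS1, OAS3 and OAS2 lie side by side on chromosome 12 (112906777 to 113011723, GRCh38), yet in CAL27/OXA OAS1 was below and the other two above the parental level.

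The 4 signalling factors had a median log2 ratio of 0.59 in CAL27/5FU and -0.09 in CAL27/OXA, and none was called in either line. Most tested genes were not called either (11600 of 13676 in CAL27/5FU and 11513 in CAL27/OXA). STAT2 had 6635, 9934 and 8404 counts in CAL27, CAL27/5FU and CAL27/OXA, a log2 ratio of 0.58 (0.53 to 0.62) in CAL27/5FU and of 0.15 (0.10 to 0.20) in CAL27/OXA. IRF9, its DNA-binding partner, had 3195, 4898 and 3685 counts and ratios of 0.61 and 0.02, the latter with an interval that spans 0 (-0.05 to 0.09). IRF7, which amplifies interferon gene transcription, had 2294, 4073 and 2281 counts and ratios of 0.82 and -0.20. These factors were thus highest in CAL27/5FU, where each was less than 2-fold above CAL27. IRF1, which answers to interferon-gamma through GAS as well as to type I interferon, had 8657, 7253 and 8477 counts and was the exception, with ratios of -0.26 (-0.31 to -0.22) and -0.22 (-0.26 to -0.18). Both of its intervals lay below 0, so IRF1 was highest in the parental library.

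Of the 5 genes of ISG15 conjugation, 4 were called higher in CAL27/5FU (median log2 ratio 1.75), against 8.46% of all tested genes. ISG15, which is attached to proteins as ubiquitin is and is also secreted, had 6676, 25204 and 14270 counts in CAL27, CAL27/5FU and CAL27/OXA. That is 3.76-fold higher in CAL27/5FU (log2 1.91, interval 1.87 to 1.95) and 1.87-fold higher in CAL27/OXA (0.91, 0.86 to 0.95). HERC5, the ligase of ISG15 in human cells, was the member with fewest counts in CAL27, at 421, 1430 and 841 counts, and had ratios of 1.75 (1.60 to 1.92) and 0.81 (0.64 to 0.98). Its paralog HERC6 had 890, 2695 and 1633 counts and ratios of 1.59 and 0.68. These 3 genes showed the same order, with CAL27/OXA between the other libraries. USP18, the protease that removes ISG15 and also restrains the interferon receptor, had that order too, but lay closer to the parental level in CAL27/OXA: its 1170, 4140 and 1489 counts gave 1.81 (1.72 to 1.91) in CAL27/5FU and 0.16 (0.05 to 0.27) in CAL27/OXA. UBA7, the activating enzyme of ISG15, had 1501, 1610 and 986 counts and was close to the parental level in CAL27/5FU (0.09, -0.01 to 0.20) and below it in CAL27/OXA (-0.79, -0.91 to -0.68).

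Antiviral effectors were the largest role, with 17 genes, of which 13 were called higher in CAL27/5FU (median log2 ratio 1.40), against 8.46% of all tested genes. In CAL27/OXA 1 of the 17 was called higher, against 6.54% of all tested genes, and the median was 0.09. CMPK2, a mitochondrial nucleotide kinase, had 852, 4460 and 792 counts in CAL27, CAL27/5FU and CAL27/OXA, and was 5.21-fold higher in CAL27/5FU (log2 2.38, 2.28 to 2.49). Its neighbour RSAD2, the gene of viperin, which makes a chain-terminating nucleotide, had 896, 3660 and 1084 counts and ratios of 2.02 and 0.09 (-0.04 to 0.21). MX2, a GTPase that restricts HIV, had 2487, 10207 and 2386 counts and ratios of 2.03 (1.97 to 2.09) and -0.25 (-0.33 to -0.17). In CAL27/OXA the interval of RSAD2 thus spanned the parental level, and CMPK2 and MX2 were slightly below it. MX1, the GTPase that restricts influenza virus, had 11699, 33009 and 12702 counts and ratios of 1.49 and -0.07, and the latter was positive with scaling by total counts and with FPKM.

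The IFIT proteins bind foreign RNA, IFIT1 preferring caps that lack the methylation of host RNA. IFIT1 had 3784, 14215 and 3926 counts in CAL27, CAL27/5FU and CAL27/OXA, which is 3.74-fold higher in CAL27/5FU (log2 1.90, 1.85 to 1.95) and -0.14 (-0.20 to -0.07) in CAL27/OXA. IFIT3 had 6273, 18959 and 8466 counts (1.59 and 0.24), and IFIT2 had 3136, 8300 and 4110 counts (1.40 and 0.20). IFIT5 had the smallest ratio of the family in CAL27/5FU, with 1766, 3622 and 2531 counts, a ratio of 1.03 (0.95 to 1.11) in CAL27/5FU and of 0.33 in CAL27/OXA. The family was ordered IFIT1, IFIT3, IFIT2, IFIT5 in CAL27/5FU, with no overlap between their intervals, and in CAL27/OXA IFIT1 lay below the other members, whose intervals overlapped. The 4 genes lie within chromosome 10 from 89283694 to 89421001, and IFIT2 shares exon sequence with LIPA on the opposite strand, so without a stated strandedness their reads cannot be told apart there.

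The IFITM proteins block the fusion of enveloped viruses at the cell membrane and in endosomes. IFITM3 had 15918, 37823 and 23122 counts in CAL27, CAL27/5FU and CAL27/OXA (log2 ratios 1.24 and 0.35), and IFITM1 had 6970, 21738 and 10248 counts (1.63 and 0.37). IFITM2 had 2305, 3680 and 4042 counts, with ratios of 0.67 and 0.62 whose intervals overlapped, so it did not share the difference between the resistant lines. The annotations of IFITM1 and IFITM2 overlap on the same strand of chromosome 11 and the paralogs are closely similar, so how their reads were split is uncertain. BST2, or tetherin, which holds budding viruses on the cell surface, had 13012, 17567 and 13310 counts and ratios of 0.43 (0.39 to 0.46) and -0.16 (-0.19 to -0.12). IFI16, a sensor of nuclear DNA that also restricts viral transcription, had 12136, 15782 and 17110 counts and the smallest ratio of the effectors in CAL27/5FU, 0.37, close to the 0.31 of CAL27/OXA. Both were abundant already in the parental cells.

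ISG20, an exonuclease that degrades RNA, had 423, 1186 and 1005 counts in CAL27, CAL27/5FU and CAL27/OXA. It was 2.79-fold higher in CAL27/5FU (log2 1.48, 1.32 to 1.64) and 2.08-fold higher in CAL27/OXA (1.06, 0.89 to 1.23), the only member called higher in both lines, although its interval in CAL27/OXA spans the 2-fold line. TRIM22, a ubiquitin ligase, had 2934, 7431 and 2994 counts and ratios of 1.33 and -0.16. The paralogs SAMD9 and SAMD9L, which curb translation and restrict poxviruses, differed in size in CAL27/5FU, with 0.77 for SAMD9 (8204, 14092 and 8052 counts) and 1.08 for SAMD9L (3667, 7768 and 4224 counts).

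Among the 6 other induced proteins, 5 were called higher in CAL27/5FU (median log2 ratio 1.52) and 0 in CAL27/OXA (median -0.07). The shares of all tested genes called higher were 8.46% and 6.54%. IFI44L had 1553, 8918 and 1728 counts in CAL27, CAL27/5FU and CAL27/OXA, and was 5.72-fold higher in CAL27/5FU (log2 2.51, 2.44 to 2.59), the largest ratio of the 42. In CAL27/OXA its ratio was -0.04 (-0.14 to 0.06). Its neighbour and paralog IFI44, with 4395, 9916 and 7595 counts, had 1.17 (1.12 to 1.22) and 0.60 (0.55 to 0.65). The pair is adjacent on chromosome 1 (78619922 to 78664078), and IFI44L had the larger ratio in CAL27/5FU and IFI44 in CAL27/OXA. IFI6, a membrane protein that curbs flavivirus replication and apoptosis, had 6092, 32796 and 8790 counts and ratios of 2.42 (2.38 to 2.46) and 0.34 (0.29 to 0.39). XAF1, a binding partner of the apoptosis inhibitor XIAP, had 2250, 7858 and 2191 counts, was 3.48-fold higher in CAL27/5FU and had a ratio of -0.23 in CAL27/OXA. IFI27 had 4616, 10947 and 4863 counts (1.24 and -0.11) and IFI35 had 2361, 3624 and 2414 counts (0.61 and -0.16). The values of IFI27 and IFI44L in CAL27/OXA turned positive with total counts and with FPKM.

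The chemokines CXCL10 and CXCL11, ligands of CXCR3 on T cells and NK cells, were the members farthest below the parental level in CAL27/OXA. CXCL10 had 723, 1149 and 236 counts in CAL27, CAL27/5FU and CAL27/OXA. Its log2 ratio was 0.66 (0.53 to 0.80) in CAL27/5FU and -1.80 (-2.02 to -1.59) in CAL27/OXA, and the latter interval lay wholly past 2-fold. CXCL11 had 612, 2171 and 374 counts and ratios of 1.82 (1.69 to 1.95) and -0.90 (-1.09 to -0.71). The genes lie next to each other on chromosome 4, and both were highest in CAL27/5FU and lowest in CAL27/OXA.

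The resistant lines were then compared with each other, which leaves the CAL27 library out of the ratio but not out of the scaling. In CAL27/OXA 21 of the 42 genes were more than 2-fold lower than in CAL27/5FU and 0 were higher, where 8.38% of all tested genes were called lower and 4.18% higher. For 19 of them the whole interval lay past 2-fold, against 5.18% of tested genes, and 8 were more than 4-fold lower, against 2.57%. The median log2 ratio of the 42 genes was -0.997, against 0.0079 for all tested genes. CXCL11 (-2.71, -2.88 to -2.56), CMPK2 (-2.67), IFI44L (-2.55), CXCL10 (-2.46) and MX2 (-2.28) had the lowest ratios. The 10 nearest tested genes around CMPK2 that are not members were lower too, with a median of -1.04, and their part in its ratio was not tested. At the other end, IRF1 (0.04), DDX60 (-0.03) and IFITM2 (-0.05) had intervals that span 0, and IFI16 was at -0.07 (-0.10 to -0.03). By role, the called genes were 2 of 8 sensors, 1 of 4 signalling factors (IRF7, at -1.02), 2 of 5 genes of ISG15 conjugation, 10 of 17 effectors, 4 of 6 other induced proteins and 2 of 2 chemokines.

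Levels between genes were compared per length, as FPKM, which are scaled by total counts. Together the 42 genes summed to 2863, 8091 and 3704 FPKM in CAL27, CAL27/5FU and CAL27/OXA, and took 0.490%, 1.26% and 0.592% of all counts. IFITM3 was the highest member in each library, at 570.2, 1518 and 796.4 FPKM in CAL27, CAL27/5FU and CAL27/OXA. In CAL27 it was followed by BST2, ISG15 and IFITM1, and these 4 genes made up 47.1% of the sum. In CAL27/5FU the order was IFITM3, IFI6, ISG15 and IFITM1 (54.1% of the sum), with IFI6 at 1037 FPKM against 171.9 in CAL27 and 238.5 in CAL27/OXA. No member was silent in the parental cells, where the lowest was HERC5 at 2.86 FPKM. Under 10 FPKM were 8, 0 and 8 members in CAL27, CAL27/5FU and CAL27/OXA, and over 100 FPKM were 8, 14 and 11. By scaled counts, 41 of the 42 genes were highest in CAL27/5FU, and the lowest library was CAL27 for 25 genes and CAL27/OXA for 16.

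**Figure D4:**
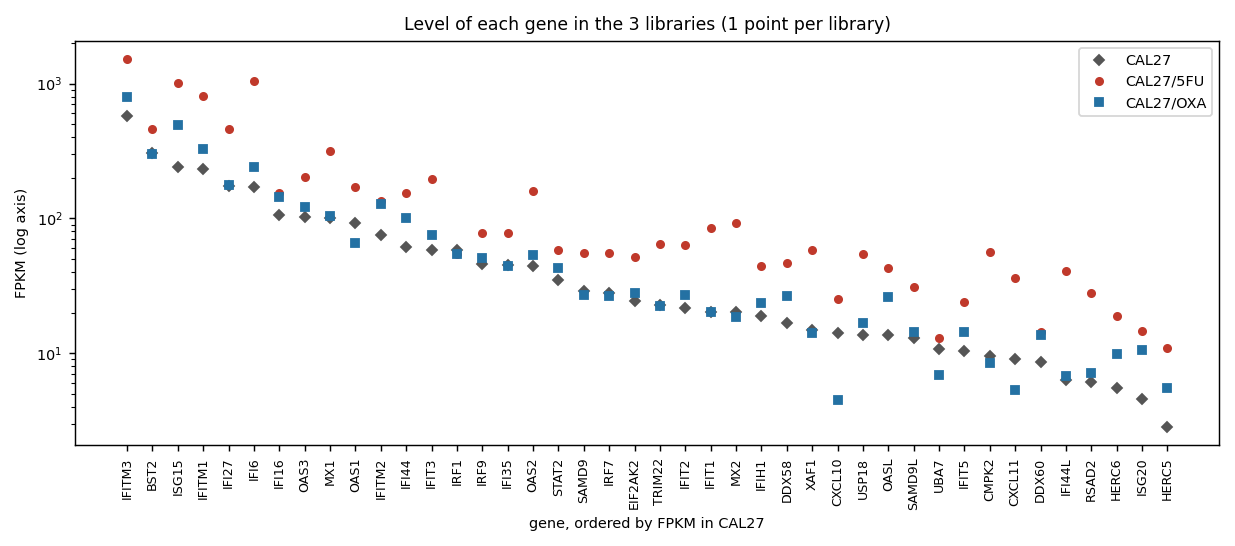
FPKM (log axis) of each of the 42 genes in CAL27 (diamonds), CAL27/5FU (circles) and CAL27/OXA (squares), 1 point per library, ordered by the level in CAL27. Apart from IRF1, circles lie above diamonds for genes of high and of low level alike, from IFITM3 (570.2 and 1518 FPKM) to HERC5 (2.86 and 10.9 FPKM). The squares of CXCL10 and CXCL11 lie below both, and so do those of other members, among them OAS1, UBA7 and CMPK2.

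The 42 genes lie on 16 chromosomes. Around each gene the 10 nearest tested genes that are not members, 5 on each side where possible, were taken from GENCODE 29 on GRCh38. In CAL27/5FU the median ratio of these neighbours was between -0.26 and 0.63 over the 42 genes, with no median past 2-fold, and 40 of 42 members lay above it. Single neighbours were past 2-fold higher, most often around DDX60, IFIT1, IFIT2, IFIT3 and IFIT5, at 4 of 10 each. Of all tested genes, 8.46% were. In CAL27/OXA the neighbours' medians lay between -0.96 and 0.83 and 25 members were above them. The lowest was that of RSAD2 and CMPK2 on chromosome 2, at -0.96 in CAL27/OXA and 0.08 in CAL27/5FU, which is below the ratios of both genes in CAL27/OXA (0.09 and -0.29). RSAD2 and CMPK2 also share exon sequence on opposite strands, 2 of the 7 members whose exons overlap another gene of the count table, with EIF2AK2 (GPATCH11), IFIT2 (LIPA), IFITM1, IFITM2 and TRIM22 (OR56B1). The highest was that of IRF1 on chromosome 5, at 0.83 in CAL27/OXA and 0.47 in CAL27/5FU, where IRF1 itself was at -0.22 and -0.26. Between the resistant lines the neighbours' medians lay between -1.04 and 0.35, and 2 of them were past 2-fold. These were the medians of RSAD2 and CMPK2, both -1.04, where the genes themselves were at -1.94 and -2.67.

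The other genes of the pathway were followed in lists written from general knowledge, with earlier results of these data known. The interferons themselves were near the limit of detection. IFNB1 had 0, 4 and 0 counts in CAL27, CAL27/5FU and CAL27/OXA, IFNA1 had 0, 2 and 3, IFNA2 had 0, 0 and 2, and IFNA5, IFNK and IFNG had 0 in all 3 libraries, where a count of 0 allows up to 3. IFNW1 (2, 8 and 0 counts), IFNL1 (5, 3 and 5), IFNL2 (0, 4 and 0) and IFNL3 (4, 2 and 0) were also under the filter. IFNE, an epithelial interferon, was the only tested ligand of 11, with 60, 117 and 78 counts and ratios of 0.93 (0.50 to 1.43) and 0.18 (-0.32 to 0.70). IFNW1 was lower in CAL27/OXA than in CAL27/5FU, with a log2 interval whose upper end was -0.95. Between the other pairs of libraries, and for the other ligands under the filter, differences were not detectable at this depth.

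All 6 receptor chains were expressed and 0 of them were called in either line, with a median log2 ratio of -0.31 in CAL27/5FU and -0.32 in CAL27/OXA. Within 2-fold were also 11600 of the 13676 tested genes in CAL27/5FU and 11513 in CAL27/OXA. IFNAR1 had 3477, 3041 and 3255 counts in CAL27, CAL27/5FU and CAL27/OXA (ratios -0.20 and -0.28), and IFNAR2 had 1674, 1342 and 1599 counts (-0.33 and -0.26). The type II chains IFNGR1 (-0.30 and -0.45) and IFNGR2 (-0.38 and -0.35) were close to these values. IL10RB, the shared chain of the type III receptor, was lowest (1387, 887 and 968 counts, -0.65 and -0.71), and IFNLR1, the other chain, had 435, 428 and 655 counts (-0.03 and 0.40). Receptor transcripts were thus within 2-fold of the parental level in CAL27/5FU, as most tested genes were.

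The kinases and further IRF factors of the pathway were read gene by gene. JAK2, a kinase of the interferon-gamma receptor, had 430, 741 and 871 counts in CAL27, CAL27/5FU and CAL27/OXA and was above CAL27 in both lines (0.78 and 0.83), and IRF5 had 1404, 775 and 1041 counts and was below it in both (-0.86 and -0.62), all within 2-fold. JAK1 (0.23 and -0.08), TYK2 (-0.35 and -0.44), STAT3 (-0.06 and -0.46), IRF2 (-0.27 and -0.09) and IRF3 (0.13 and -0.13) lay closer to the parental level. IRF8, a factor of blood cells, had 0, 0 and 2 counts.

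Among the 11 adaptors, kinases and further sensors of nucleic acids, ZBP1 was called in both lines. Called higher were 8.46% of all tested genes in CAL27/5FU and 6.54% in CAL27/OXA. ZBP1, a sensor of Z-form nucleic acid that can start necroptosis, had 30, 374 and 94 counts in CAL27, CAL27/5FU and CAL27/OXA, ratios of 3.55 (3.10 to 4.22) and 1.40 (0.85 to 2.10). The list's median was 0.14 in CAL27/5FU and -0.22 in CAL27/OXA, so ZBP1 stood apart from the rest. DHX58, a RIG-I-like helicase (LGP2), had 1330, 2328 and 2011 counts (0.80 and 0.41), and AIM2, a sensor of cytosolic DNA, had 876, 1241 and 645 counts (0.49 and -0.63). The adaptors MAVS (0.14 and -0.22), TICAM1 (-0.50 and -0.26) and TMEM173, the gene of STING (-0.10 and -0.35), the kinases TBK1 (-0.08 and -0.11) and IKBKE (-0.01 and -0.47), the synthase MB21D1, or cGAS (0.31 and 0.40), the receptor TLR3 (-0.04 and -0.74) and the ligase TRIM25 (0.44 and 0.20) were all within 2-fold.

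Of the 10 negative regulators, 3 were called higher in CAL27/5FU and 1 in CAL27/OXA, with list medians of 0.07 and -0.04. Of all tested genes, 8.46% were called higher in CAL27/5FU and 6.54% in CAL27/OXA. SOCS3, an inhibitor of JAK kinases, had 1210, 3141 and 3013 counts in CAL27, CAL27/5FU and CAL27/OXA and was called in both lines (1.37 and 1.13). SAMHD1, a dNTP hydrolase whose loss raises interferon signalling, had 2403, 6312 and 3775 counts (1.39 and 0.46). PTPN2, a phosphatase that acts on JAK1, had 1312, 5517 and 1662 counts (2.06 and 0.15), and the 10 tested genes closest to it on chromosome 18 gave a median of 1.38 in CAL27/5FU and 0.16 in CAL27/OXA. Genes around PTPN2 were thus higher with it in CAL27/5FU, where 7 of the 10 were past 2-fold, and their part in its ratio was not tested. The medians around the 42 members lay lower, between -0.26 and 0.63, although single genes around some members were past 2-fold too. SOCS1 (-0.24 and -0.13), PIAS1 (-0.14 and -0.16), PTPN1 (-0.57 and -0.10), PTPN6 (-0.50 and -0.83), TRIM21 (0.36 and 0.16), ADAR (0.27 and -0.19) and TREX1 (-0.21 and 0.03) were within 2-fold.

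A further 25 interferon-induced genes outside the 42 lay nearer the parental level. In CAL27/5FU 3 were called higher and 1 lower, where 8.46% of all tested genes were called higher and 6.72% lower. Of the 25 genes, 19 had a positive ratio and the median was 0.26. EPSTI1 (942, 3514 and 1479 counts, ratios 1.89 and 0.46), the transcription factor gene BATF2 (226, 774 and 339 counts, 1.76 and 0.39) and LAMP3 (1267, 3267 and 2145 counts, 1.36 and 0.57) were the called ones. APOL1, a lipid-binding protein of innate immunity, went the other way in both lines, with 56382, 15554 and 19347 counts in CAL27, CAL27/5FU and CAL27/OXA (-1.86 and -1.73). In CAL27/OXA 0 were called higher and 2 lower, APOL1 and LY6E (12967, 11650 and 6044 counts, -0.16 and -1.29), and the median was -0.05. There, 6.54% of all tested genes were called higher and 9.28% lower. In CAL27/5FU 21 of these 25 genes were within 2-fold of CAL27, and so were 23 in CAL27/OXA.

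Genes that answer mainly to interferon-gamma were counted apart. Of 10 tested, 2 were called higher in CAL27/5FU (median log2 ratio 0.71), GBP5 and IDO1, where 8.46% of all tested genes were. GBP5, a guanylate-binding protein, had 68, 417 and 78 counts in CAL27, CAL27/5FU and CAL27/OXA (2.58 and 0.01), and IDO1, which degrades tryptophan, had 91, 358 and 57 counts (1.95 and -0.84). In CAL27/OXA, where 9.28% of all tested genes were called lower, 2 of the 10 were (median -0.63). These were CIITA, the activator of MHC class II genes, with 422, 739 and 67 counts (0.80 and -2.80), and APOL3, with 1587, 1583 and 690 counts (-0.01 and -1.39). CXCL9, the third ligand of CXCR3, was under the filter with 0, 9 and 0 counts, and the lower end of its log2 interval in CAL27/5FU was 0.97. Of the CXCR3 ligands, all 3 thus had most counts in CAL27/5FU.

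**Figure D5:**
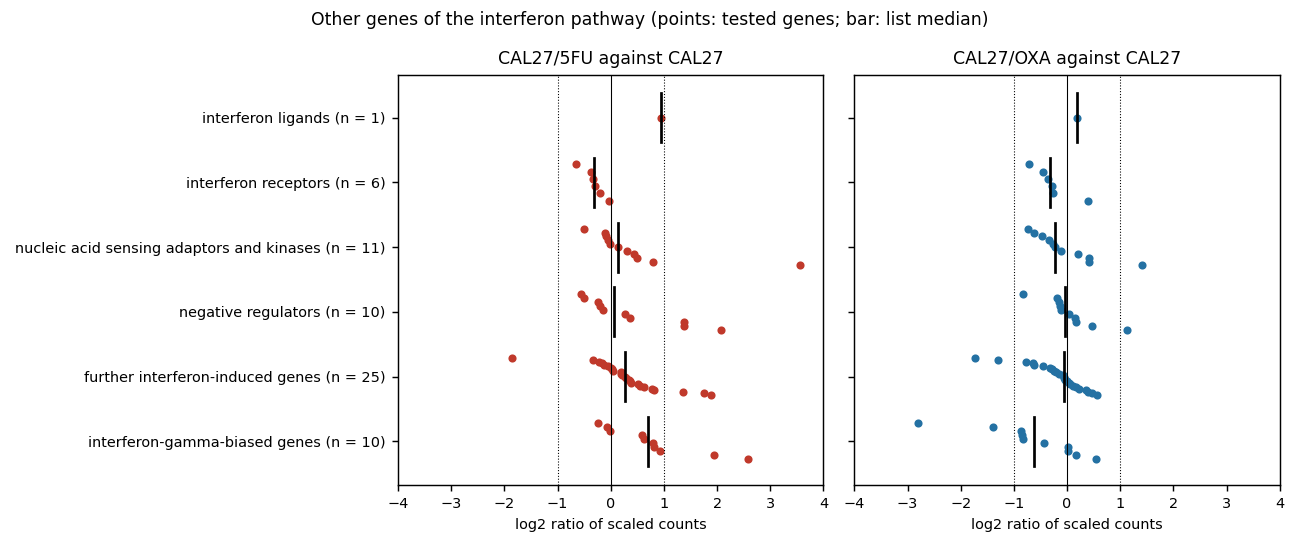
Log2 ratio of scaled counts against CAL27 of each tested gene (points) in 6 lists of the interferon pathway outside the 42 genes, in CAL27/5FU (left) and CAL27/OXA (right), with list medians (bars) and 2-fold (dotted). List medians lie between -0.31 (receptors) and 0.93 (ligands, IFNE alone) in CAL27/5FU, and the point at 3.55 is ZBP1.

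Cell type markers were read beside these results. All 10 squamous epithelial markers were present in each library, and they summed to 6847, 1842 and 2558 FPKM in CAL27, CAL27/5FU and CAL27/OXA. In CAL27/5FU 8 of the 10 were called lower (6.72% of all tested genes were), with KRT14 at 58222, 948 and 8423 counts, and in CAL27/OXA 6 were (9.28% of all tested genes). The list did not move as a whole: EPCAM (log2 ratios 0.39 and 0.03) and CDH1 (-0.14 and -0.16) stayed within 2-fold in both lines, and TP63 (-1.28 and 0.13) and SFN (-1.08 and 0.08) were called lower in CAL27/5FU alone. Defining leukocyte markers were at or near 0: PTPRC had 2, 0 and 0 counts and CD3D and MS4A1 had 0 in all 3 libraries. Of the 10 leukocyte markers, 3, 4 and 6 were at 0, and the list's sum of 52.2, 49.1 and 69.3 FPKM was mostly CD68 and CD14, which other cells also express. CD14 had 637, 1290 and 341 counts and was called higher in CAL27/5FU (1.01) and lower in CAL27/OXA (-1.09), so like CXCL10 and CXCL11 it was highest in CAL27/5FU and lowest in CAL27/OXA. ITGAM had 176, 27 and 38 counts and was called lower in both lines (-2.63 and -2.34), and CD68 had 3143, 1827 and 5055 counts (-0.79 and 0.50). The markers CLEC4C and LILRA4 of plasmacytoid dendritic cells, which release most interferon in blood, had 0 counts throughout. Of the other markers on that list, IL3RA had 2, 0 and 5 counts and TCF4 had 349, 377 and 428 (0.10 and 0.10). The sums of the fibroblast markers were 7.51, 11.9 and 14.9 FPKM, with COL3A1 at 0 in all libraries, and those of the endothelial markers were 0.437, 2.29 and 1.06 FPKM. LUM (120, 414 and 877 counts, log2 ratios 1.76 and 2.66), COL1A2 (90, 300 and 212 counts, 1.71 and 1.03) and the endothelial CDH5 (43, 338 and 163 counts, 2.91 and 1.69) were called higher in both lines, and COL1A1 was within 2-fold (-0.38 and -0.59). Called higher were 8.46% of all tested genes in CAL27/5FU and 6.54% in CAL27/OXA. Of the endothelial sums, CDH5 alone gave 0.248, 2.19 and 0.905 FPKM. VWF (44, 19 and 29 counts, -1.14 and -0.75) was called lower in CAL27/5FU, and PECAM1 had 13, 6 and 11 counts (-0.92 and -0.37). KDR was under the filter, with 0, 3 and 6 counts. The part of these epithelial, leukocyte, fibroblast and endothelial markers in the values of the interferon-stimulated genes was not tested.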

How the data were processed

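Total RNA (TRIzol, 1 μg per sample) was made into libraries with the NEBNext Ultra RNA kit and sequenced on an Illumina platform by Novogene. The submitters' processing notes name CASAVA 1.8, HISAT2 2.0.5 and GRCh38 (hg38), and the counting tool, the annotation and the strandedness are not given in the sources used here. The authors deposited read counts per gene symbol, without normalization, and FPKM values, which they scaled by gene length and total counts. Each table also has 3 columns whose names give the same 3 lines with a final 2. No sample label describes them, so they were left out throughout, and the limit to 1 library per line is one of the columns used.

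Counts were scaled with TMM factors (edgeR 4.0.16 in R 4.3.3) over the 3 libraries. Log2 ratios used a prior count of 2 and the 13676 genes that averaged 10 or more counts. Intervals are exact Clopper-Pearson 95% intervals (scipy 1.17.1), and a gene past 2-fold was called. The floor was 3 counts, which is 0.0770, 0.0766 and 0.0675 CPM in CAL27, CAL27/5FU and CAL27/OXA. FPKM values served for levels between genes and sums and, with a pseudocount, as an alternative source of ratios. The scripts were tested on simulated data.

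The members, their roles and the lists were chosen with earlier results of these data known. All 42 members were named, and so were the genes of the ligand, receptor, JAK-STAT and IRF, sensing and negative regulator lists, except for an item that is not reported here. Of the other lists, at most the 3 largest rises and the 3 largest falls among tested genes were named, together with genes under the filter where a count of 0 matters. Alternatives were scaling by the upper quartile, by total counts or with DESeq2 1.42.0, no filter, a filter of 50 counts on average, prior counts of 0.5 and 5, FPKM with pseudocounts of 1 and 0.1, a 4-fold threshold and the whole interval past 2-fold.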

Additional observations from a re-analysis of the deposited data

Results flagged for a closer look

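For 14 of the 42 genes the counting interval lay above 0 in CAL27/5FU and below 0 in CAL27/OXA, both against the shared CAL27 library, as it did for 5.63% of all tested genes. Intervals below 0 in CAL27/OXA alone were as common among the 42 genes (16) as among the 13676 tested genes (5131). Those above 0 in CAL27/5FU were not (40 and 5003). With 1 library per line the difference was not tested. Given as the log2 ratio in CAL27/OXA minus that in CAL27/5FU, it was -2.71 for CXCL11, -2.67 for CMPK2, -2.46 for CXCL10, -2.28 for MX2, -2.04 for IFIT1 and -2.02 for XAF1. It was -1.56 for MX1, -1.49 for TRIM22, -1.35 for IFI27, -1.34 for OAS1 and -1.02 for IRF7, and -0.99 for SAMD9, -0.77 for IFI35 and -0.58 for BST2. In CAL27/OXA all but CXCL10 of these genes were within 2-fold of CAL27, and the negative ratios of MX1 (-0.07) and IFI27 (-0.11) turned positive with scaling by total counts and with FPKM.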

How the results depend on the processing

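No paired analysis was possible because 1 labelled library per line was used, so no replicate could be left out either. Scaling by total counts alone moved the members' median log2 ratio to 1.44 in CAL27/5FU and 0.23 in CAL27/OXA, and the numbers were 1.42 and 0.22 from FPKM with a pseudocount of 1 and 1.44 and 0.23 with a pseudocount of 0.1. Under each of these 3 settings 2 members, ISG15 and ISG20, were called higher in CAL27/OXA. At 4-fold, 5 members were called higher in CAL27/5FU (2.95% of tested genes), 0 higher (2.16%) and 0 lower (3.01%) in CAL27/OXA, and 8 were lower in CAL27/OXA than in CAL27/5FU (2.57%). With the whole interval past 2-fold, 0 members were called higher in CAL27/OXA (3.85%). All 42 members kept the sign of their ratio under every scaling, filter, prior count and pseudocount tried in CAL27/5FU and between the resistant lines, and 39 did in CAL27/OXA, where MX1, IFI27 and IFI44L turned positive with total counts and with FPKM. EIF2AK2 in CAL27/5FU, ISG15 in CAL27/OXA and SAMD9 between the resistant lines crossed 2-fold under at least 1 setting. Over all tested genes, dropping the filter gave 1899 higher and 1555 lower genes in CAL27/5FU, 1348 and 1925 in CAL27/OXA and 981 and 1861 between the resistant lines. FPKM with a pseudocount of 1 gave 503 and 311, 368 and 481, and 165 and 437. A mean of at least 50 counts gave 760 and 655 in CAL27/5FU and 369 and 794 between the resistant lines. The number of labelled libraries, and not the depth, limits these values for the 42 genes, whose lowest count was 236, while the interferon genes were at the floor.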
